A study of Mus musculus with 8 samples.

Results

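The receptors for extracellular nucleotides and adenosine and the ectonucleotidase Entpd1 were followed across macrophage activation states. Of 10 genes looked up by symbol, 8 were listed in the annotation table used here, each by 1 to 4 probe sets (groups of short probes for 1 transcript), 16 probe sets in all of the 45037 tested: P2rx4, P2rx7, P2ry2, P2ry6, P2ry13, P2ry14, Adora3 and Entpd1. Adora2a and Adora2b were not listed in that table and were not analysed here, so the counts below are over the other 8 genes. The paper lists Adora2b among the genes up-regulated in both M1 and M2, a result that was not examined here. The cells were bone marrow-derived macrophages of wild-type C57BL/6J mice, grown with L929 cell supernatant as the source of macrophage colony stimulating factor and replated without it on day 7. M0 macrophages received media alone, M1 macrophages received 100 ng/ml LPS and 20 ng/ml IFN-γ, and M2 macrophages received 20 ng/ml IL-4, each for 24 hours, with 3, 3 and 2 arrays. The labels call these arrays biological replicates, while the methods count both mice and in vitro replicates, so the p-values measure the spread between arrays, part of which may be technical.

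Cells release ATP, ADP, UTP, UDP and UDP-sugars when they are stressed, stimulated or damaged. P2X receptors are ATP-gated cation channels, P2Y receptors are G protein-coupled receptors for ATP, ADP, UTP, UDP or UDP-glucose, and Adora3 is 1 of the G protein-coupled receptors for adenosine. Entpd1 (CD39) sits on the cell surface and hydrolyses ATP and ADP to AMP, which other ectoenzymes convert to adenosine. In macrophages P2rx7 is best known for triggering inflammasome-dependent release of IL-1β, and P2Y receptors for chemotaxis and phagocytosis of dying cells.

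Compared with M0 macrophages, 1 of the 8 genes (P2ry2) was up-regulated and 1 (Entpd1) down-regulated in M1 macrophages at an adjusted p under 0.05, the threshold used throughout with limma, against 13.7% of all 18193 genes higher and 11.5% lower. In M2 macrophages none of the 8 was up-regulated and 1 (P2ry13) was down-regulated relative to M0, against 8.03% and 6.43% of all genes. Between M1 and M2, P2ry2 and P2ry13 were higher in M1 and none was lower, against 11.5% and 12.3% of all genes. At 0 to 2 of 8 genes these counts do not stand apart from the background. The median log2 change of the 8 genes was -0.19 in M1 and -0.21 in M2 relative to M0, and -0.17 between M1 and M2, beside 0.016, 0.014 and 0.003 over all genes. By probe set, 1 of 16 was higher and 4 were lower in M1 than in M0, beside 10.2% and 10.2% of all probe sets. The counts were 0 and 1 in M2 relative to M0 (6.32% and 5.85% of all) and 2 and 1 in M1 relative to M2 (8.87% and 10.1%). M1 and M2 were both compared with the same 3 M0 arrays, so these comparisons are not independent. The value of a gene with several probe sets is that of the probe set with the highest mean.

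The promoters of the 3 genes that passed in a comparison are printed below from RefSeq (GRCm38.p6), as the 250 bases before the most upstream annotated start of P2ry2 and P2ry13 and before both annotated starts of Entpd1, whose probe sets gave unequal changes, each 5′ to 3′ on the strand of its gene. Capitals mark GGGCGG (a GC box) in P2ry2 and GAGGAA (the core bound by PU.1, a factor of macrophage development) in the other genes, on either strand. The last Entpd1 stretch holds 2 GAGGAA matches and the upstream one holds none.
P2ry2, chr7:101012054-101012303, minus strand: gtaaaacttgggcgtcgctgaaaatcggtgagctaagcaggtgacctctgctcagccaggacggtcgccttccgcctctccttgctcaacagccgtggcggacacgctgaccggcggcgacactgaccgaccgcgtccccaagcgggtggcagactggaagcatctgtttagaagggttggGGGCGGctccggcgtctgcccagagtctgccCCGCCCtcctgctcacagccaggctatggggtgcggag
P2ry13, chr3:59210883-59211132, minus strand: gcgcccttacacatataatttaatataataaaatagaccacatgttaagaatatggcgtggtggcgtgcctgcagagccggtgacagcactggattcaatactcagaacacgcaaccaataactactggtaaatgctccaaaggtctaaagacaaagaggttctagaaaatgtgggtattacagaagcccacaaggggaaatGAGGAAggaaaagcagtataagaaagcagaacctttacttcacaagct
Entpd1, chr19:40612116-40612365, plus strand: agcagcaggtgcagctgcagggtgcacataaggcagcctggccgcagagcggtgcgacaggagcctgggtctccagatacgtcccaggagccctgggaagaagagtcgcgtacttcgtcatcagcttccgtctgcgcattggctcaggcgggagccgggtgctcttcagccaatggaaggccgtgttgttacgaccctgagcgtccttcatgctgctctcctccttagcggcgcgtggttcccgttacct
Entpd1, chr19:40659520-40659769, plus strand: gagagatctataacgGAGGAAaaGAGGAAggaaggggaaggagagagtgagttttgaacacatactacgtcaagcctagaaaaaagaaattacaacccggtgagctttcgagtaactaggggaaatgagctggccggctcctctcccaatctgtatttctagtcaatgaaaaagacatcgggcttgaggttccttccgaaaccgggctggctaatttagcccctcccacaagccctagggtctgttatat

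Windows from 250 bases before to 50 after the start were searched on both strands for 8 of the 10 genes, 14 windows in all, including that of Adora2b, whose expression was not analysed here. GGGCGG was found in windows of 4 genes (P2ry2, P2rx7, P2rx4 and Adora2b) and GAGGAA in those of 5 (P2ry13, P2ry14, P2rx7, Adora3 and Entpd1), while 35.7% and 28.3% of all 32851 windows hold them. The AP-1 letters TGANTCA were present in windows of P2ry14, Adora3 and P2rx7 and in 7.81% of all windows. A gene had 1 to 4 windows, so these counts of genes and the shares of single windows are unlike measures. No window of these genes held the κB motif (4.51% of all windows), the STAT6 motif (6.95%), the interferon response motif (3.44%) or TGACGTCA (cAMP response element, 1.79%). None of these strings contains another, and a match describes the letters in the window and no more.

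P2ry2, the Gq-coupled receptor for ATP and UTP, was up-regulated in M1 macrophages. Its intensity was 80.6, 59.7 and 68.6 units in M0, 142, 134 and 141 in M1 and 86.9 and 87.8 in M2. All M1 arrays lay above all M2 arrays, which lay above all M0 arrays. The rise in M1 was 2.01-fold over M0 (log2 change 1.01, SE 0.11, adjusted p = 4.47e-05). P2ry2 was also 1.59-fold higher in M1 than in M2 (log2 change 0.67, SE 0.13, adjusted p = 0.00242). In M2 the log2 change relative to M0 was 0.34 (95% interval 0.058 to 0.62, adjusted p = 0.122), and it passed when the first M0 array was left out (0.45, adjusted p = 0.042). The probe set was dim, with an array median of 38.9 to 40.4 units over all probe sets. In these bulk RNA samples, a change in the share of cells with a transcript and a change in its level per cell cannot be told apart.

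Among 9936 genes with a mean above 64 units, the genes whose pair of log2 changes (M1 and M2, each relative to M0) lay nearest to that of P2ry2 were Golim4, Mrps10 and Blzf1, at Euclidean distances of 0.027, 0.035 and 0.037. Golim4 and Blzf1 encode Golgi proteins and Mrps10 a mitochondrial ribosomal protein. The log2 changes of Golim4 were 0.99 in M1 and 0.35 in M2.

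P2ry6, the receptor for UDP and the neighbour of P2ry2 on chromosome 7 (adjacent coding genes in RefSeq), did not share the pattern of P2ry2. Its intensity was 4902, 4999.6 and 4965 units in M0, 4277, 4902 and 4418 in M1 and 5339 and 6179 in M2. The M2 arrays were the highest and the M1 arrays the lowest, with the second M1 array just under the lowest M0 array. None of the comparisons passed, with log2 changes of -0.13 (95% interval -0.35 to 0.089, adjusted p = 0.458) in M1 and 0.21 (95% interval -0.033 to 0.46, adjusted p = 0.288) in M2. The difference of M1 from M2 was -0.34 (95% interval -0.59 to -0.098, adjusted p = 0.0527), close to the threshold, and it passed with an intensity trend and robust variances (adjusted p = 0.0145), after further quantile normalization (adjusted p = 0.0219), with a filter on dim probe sets (adjusted p = 0.0276), with the mean over the probe sets of each gene (adjusted p = 0.0371), without the second M1 array (adjusted p = 0.0392) and without the first M2 array (adjusted p = 0.05, just under the threshold).

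P2ry13, a Gi-coupled ADP receptor, was higher in M1 than in M2 macrophages. It gave 63.5, 55.7 and 69.2 units in M0, 65.0, 107 and 88.6 in M1 and 43.2 and 36.6 in M2. The M2 arrays were below all others, and the lowest M1 array lay within the M0 range. The M1 to M2 difference was 2.14-fold (log2 change 1.10, SE 0.18, adjusted p = 0.000892). P2ry13 fell in M2 relative to M0 by 1.57-fold (log2 change -0.65, SE 0.18, adjusted p = 0.0359), and the log2 change in M1 relative to M0 was 0.44 (95% interval 0.088 to 0.80, adjusted p = 0.0812). The second M2 array was below its array's median, and the first was just above it. The M2 to M0 call was lost without the first or the third M0 array (adjusted p = 0.0845 and 0.107) and without the first or second M2 array (adjusted p = 0.0806 and 0.217), and with the replicate block (adjusted p = 0.0953), median centring (0.0532), further quantile normalization (0.0512) or either form of the methods' t-test (0.167 and 0.189). The M1 to M2 call was lost with that t-test on log2 and linear values (adjusted p = 0.182 and 0.26) and with values under 64 units set to 64 (log2 difference 0.41, adjusted p = 0.171). In M2 relative to M0 that limit of 64 units left a log2 change of -0.037 (adjusted p = 0.901), so this call was lost too. Without the first M1 array P2ry13 passed in M1 relative to M0 (0.64, adjusted p = 0.0082).

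P2ry14, the receptor for UDP-glucose and other UDP-sugars, is on chromosome 3 like P2ry13 and did not pass in any comparison. It measured 267, 235 and 290.3 units in M0, 179.6, 275 and 164 in M1 and 217 and 238 in M2. The second M1 array was within the M0 range and the other M1 arrays were below it. The log2 change was -0.39 (95% interval -0.76 to -0.021, adjusted p = 0.144) in M1 and -0.21 (95% interval -0.62 to 0.20, adjusted p = 0.578) in M2. Without the second M1 array P2ry14 was lower in M1 than in M0 (-0.62, adjusted p = 0.00419). P2ry13 and P2ry14 lie within the span of Med12l in RefSeq.

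**Figure D1:**
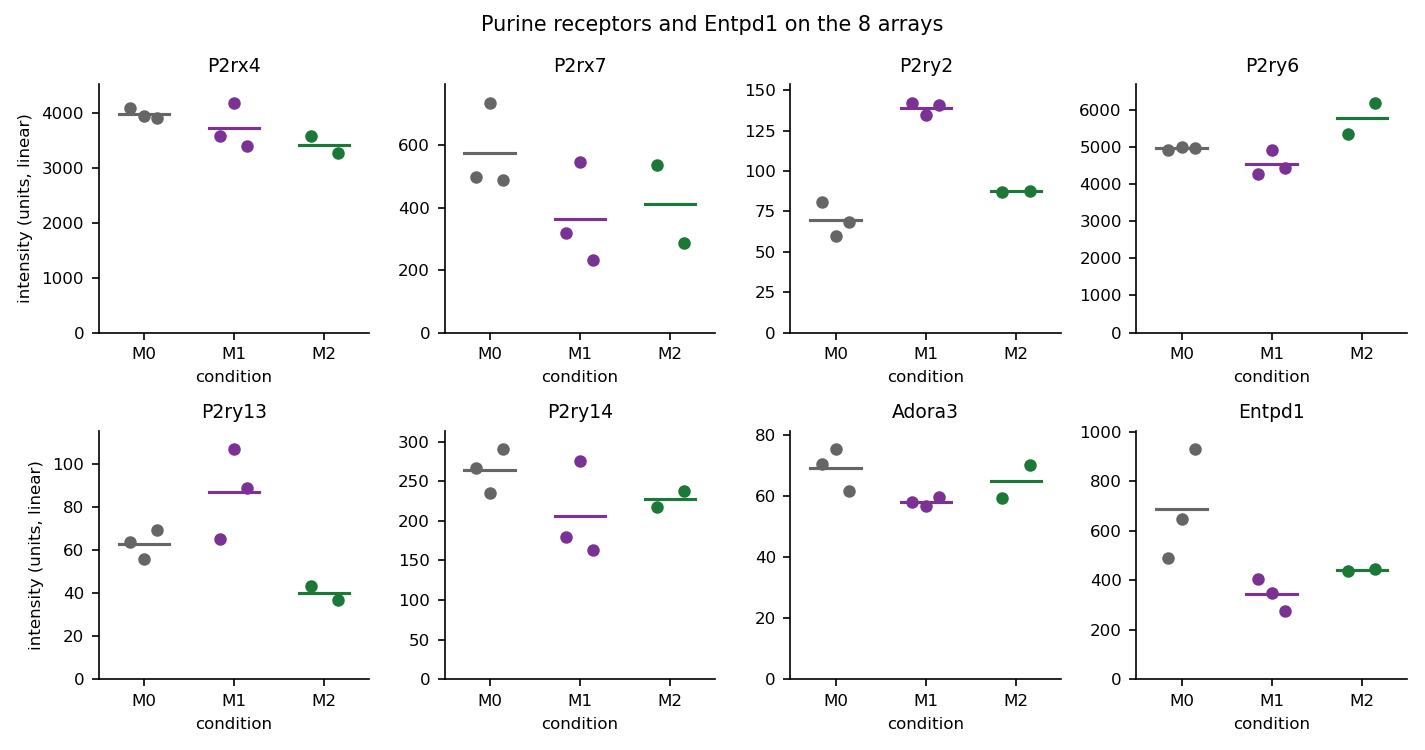
Linear intensity in units (vertical axes from 0) of the 8 genes in each M0, M1 and M2 array, shown as points with the group mean as a bar. P2ry2 at 134 to 142 units in M1 stands above every M0 and M2 array, and Entpd1 at 274 to 406 units in M1 stands below every other array.

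P2rx7, the ATP-gated channel that also forms a large pore, had 3 probe sets and did not pass in any comparison. The brightest (1439787_at) gave 498, 736 and 489 units in M0, 318, 547 and 231 in M1 and 535 and 287 in M2. The spread within each condition was as wide as the distance between conditions, with the second M0, the second M1 and the first M2 array high. The log2 change was -0.72 (95% interval -1.36 to -0.077, adjusted p = 0.12) in M1 and -0.52 (95% interval -1.24 to 0.19, adjusted p = 0.386) in M2. Without the second M1 array it was -1.06 in M1 and passed (adjusted p = 0.0145).
A second probe set (1419853_a_at) was tighter, at 309.9, 365 and 384 units in M0, 279.6, 289.9 and 285 in M1 and 306 and 271 in M2. Every M1 and M2 array was below every M0 array, with log2 changes of -0.30 (95% interval -0.54 to -0.07, adjusted p = 0.0689) and -0.29 (95% interval -0.55 to -0.025, adjusted p = 0.163). The dimmest probe set (1422218_at, 53.8 to 82.6 units) had log2 changes of 0.019 and -0.099.

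P2rx4, the other ATP-gated channel among these genes and the neighbour of P2rx7 on chromosome 5, was measured by 4 probe sets. The brightest (1425525_a_at) gave 4091, 3955 and 3913 units in M0, 3587, 4193 and 3399 in M1 and 3581 and 3283 in M2. M1 overlapped M0, and the M2 arrays were below all M0 arrays. Its log2 changes were -0.10 (95% interval -0.33 to 0.13, adjusted p = 0.601) in M1 and -0.22 (95% interval -0.47 to 0.04, adjusted p = 0.301) in M2.
The next probe set (1452527_a_at) had log2 changes of -0.12 (95% interval -0.38 to 0.15, adjusted p = 0.614) and -0.30 (95% interval -0.60 to -0.00093, adjusted p = 0.207). A dimmer one (1441772_at) was at 205, 168 and 181 units in M0, 144, 134 and 107 in M1 and 159 and 138 in M2, and it fell in M1 (log2 change -0.53, SE 0.13, adjusted p = 0.0106). It was the only 1 of the 4 that passed. The dimmest (1446429_at, 60.3 to 85.0 units) did not pass (-0.21 in M1, -0.26 in M2). P2rx4 overlaps Camkk2 in RefSeq.

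Adora3, the Gi-coupled adenosine receptor, was dim and did not pass in any comparison. Its brighter probe set (1429609_at) gave 70.7, 75.3 and 61.8 units in M0, 58.1, 56.6 and 59.8 in M1 and 59.4 and 70.2 in M2. All M1 arrays were below all M0 arrays, and the M2 arrays spanned both. The log2 change was -0.25 (95% interval -0.49 to -0.01, adjusted p = 0.15) in M1 and -0.096 (95% interval -0.36 to 0.17, adjusted p = 0.714) in M2. The other probe set (1430482_at) was below the array median on all 8 arrays. Adora3 shares its locus with Tmigd3, so the source of this signal is uncertain.

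Entpd1 was down-regulated in M1 macrophages by all 3 of its probe sets. The brightest (1423326_at) gave 489.8, 649 and 929 units in M0, 406, 349 and 274 in M1 and 438 and 445 in M2. Every M1 array was below every M2 array, which in turn was below every M0 array, and the M0 arrays spread widely. Entpd1 fell 1.97-fold in M1 (log2 change -0.98, SE 0.20, adjusted p = 0.00384). The log2 change in M2 was -0.59 (95% interval -1.08 to -0.10, adjusted p = 0.123), which passed without the first M0 array (-0.81, adjusted p = 0.0247). The M1 call was lost with the methods' t-test (adjusted p = 0.154 on log2 and 0.214 on linear values) and with values under 64 units set to 64 (adjusted p = 0.11). No value of this probe set was under 64 units, and its log2 change stayed at -0.98 under that setting.
The second probe set (1450939_at) gave 233, 302 and 423 units in M0, 173, 172 and 138 in M1 and 212 and 237 in M2. It fell 1.94-fold in M1 (log2 change -0.96, SE 0.18, adjusted p = 0.00218), and its log2 change in M2 was -0.47 (95% interval -0.91 to -0.024, adjusted p = 0.182). The third (1453586_at) gave 221, 268 and 309 units in M0, 57.2, 76.7 and 71.3 in M1 and 281 and 279 in M2. Here the M2 arrays lay within the M0 range and only the M1 arrays were low. The fall in M1 was 3.88-fold relative to M0 (log2 change -1.96, SE 0.14, adjusted p = 1.02e-06) and 4.12-fold relative to M2 (log2 change -2.04, SE 0.16, adjusted p = 1.44e-06). In M2 its log2 change was 0.086 (95% interval -0.26 to 0.43, adjusted p = 0.814).
The log2 change in M1 of the third probe set differed from that of the first by -0.98 (exact permutation test over arrays, two-sided p = 0.1, the smallest that 3 against 3 arrays allow). The log2 change in M2 differed by 0.68 (p = 0.2, exact permutation test). As the test doubles the smaller tail, 0.2 is the smallest that 3 against 2 arrays allow. The third minus the first probe set was -0.64 and -0.67 in M2 and -1.15, -1.28 and -1.59 in M0. With the mean over the 3 probe sets Entpd1 fell by 1.30 on the log2 scale in M1 relative to M0 (adjusted p = 0.000141) and by 0.97 relative to M2 (adjusted p = 0.00241).

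**Figure D2:**
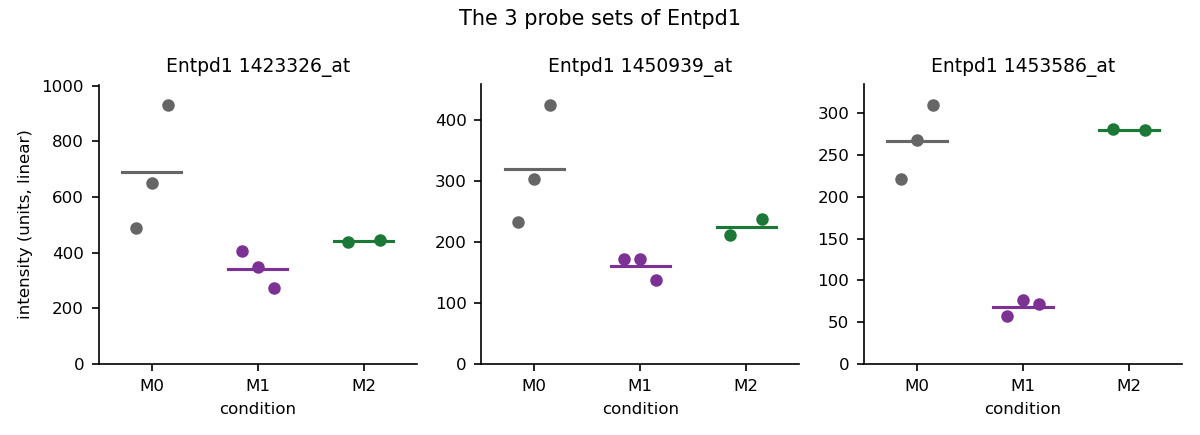
Linear intensity in units (vertical axes from 0, a scale per panel) of the 3 Entpd1 probe sets in each array, as points with the group mean as a bar. The M1 arrays are lowest in all panels, and the M2 arrays lie below the M0 arrays in the first panel but within the M0 range in the third.

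Entpd1 is also a marker of endothelial cells and B cells, whose summed marker levels were also lower in M1. The 5 endothelial markers summed to 328 to 404 units in M0, 200.4 to 238 in M1 and 1080.1 to 1097 in M2, and Cdh5, Tek and Pecam1 were below the array median on all arrays. The 4 B cell markers measured summed to 413 to 441 units in M0, 203 to 229.5 in M1 and 490.2 to 492 in M2, with Ms4a1 below the median on all arrays. Each sum fell through 1 gene, Vwf (269, 197 and 157 units in M0, 46.3, 52.3 and 39.3 in M1) and Cd22 (313, 312 and 339 in M0, 109, 121 and 106 in M1). Pecam1 rose in M1 (log2 change 0.64, SE 0.17, adjusted p = 0.0153), and Cdh5, Kdr, Tek, Ms4a1, Cd79a and Pax5 did not pass, with log2 changes of -0.05 to 0.19. The part of these cell types in the fall of Entpd1 was not tested. All 8 macrophage markers were above the median on every array, summing to 87540 to 89614 units in M0, 87706 to 89339 in M1 and 62046 to 66274 in M2. The T cell, neutrophil, mast cell, fibroblast and platelet lists summed to between 115 and 452 units. The brightest markers of the 8 lists were Lyz2, Cd4, Cd22, Ltf, Tpsb2, Vwf, Col1a2 and Itga2b.

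**Figure D3:**
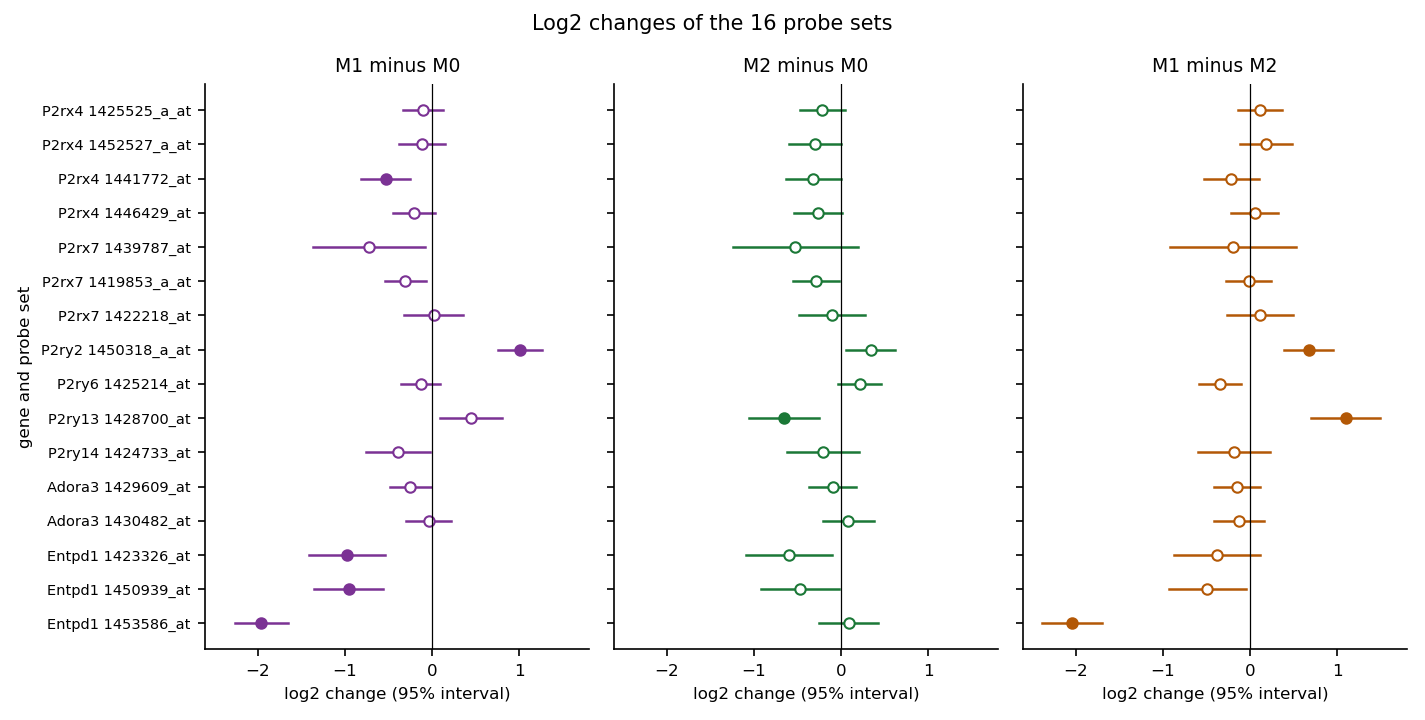
Log2 change with its 95% interval (horizontal axes) of the 16 probe sets in the 3 comparisons. Filled points passed at an adjusted p under 0.05: 5 in M1 minus M0, 1 in M2 minus M0 and 3 in M1 minus M2.

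The arrays of a condition did not vary in step for every gene. The second M1 array was the highest of the M1 arrays for 5 of the 8 genes (P2rx4, P2rx7, P2ry6, P2ry13 and P2ry14), and leaving it out brought P2rx7, P2ry14 and, between M1 and M2, P2ry6 past the threshold. It was the lowest for P2ry2 and Adora3.

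Between M1 and M2 macrophages, the genes that have not been compared so far did not pass. The log2 difference was 0.11 (95% interval -0.14 to 0.37, adjusted p = 0.604) for P2rx4, -0.19 (95% interval -0.91 to 0.52, adjusted p = 0.776) for P2rx7 and -0.18 (95% interval -0.59 to 0.23, adjusted p = 0.613) for P2ry14. It was -0.15 (95% interval -0.42 to 0.11, adjusted p = 0.482) for Adora3. For Entpd1 it was -0.38 (95% interval -0.87 to 0.11, adjusted p = 0.309) at the brightest probe set and -0.49 (95% interval -0.93 to -0.045, adjusted p = 0.131) at the second, beside the much lower M1 level of the third. Except for Entpd1, the M1 and M2 arrays of these genes overlapped.

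In the other 5 lists of the purine pathway, 42 of 47 genes were measured, of which 8 were higher and 7 lower in M1 than in M0, against 13.7% and 11.5% of all genes. In M2, 6 were higher and 6 lower, against 8.03% and 6.43%. The counts by list below are over few genes and are read beside these shares. Of the 10 other receptors measured, 1 was higher and 2 were lower in M1, and 3 were higher in M2. P2ry1, a Gq-coupled ADP receptor, stood at 62.4, 66.1 and 60.3 units in M0, 39.2, 28.4 and 21.6 in M1 and 312 and 257 in M2. It fell in M1 (log2 change -1.12, SE 0.18, adjusted p = 0.000539) and rose in M2 (log2 change 2.17, SE 0.20, adjusted p = 1.43e-05), so that M1 and M2 lay on opposite sides of M0. Vwf and Ppbp, of the endothelial and platelet lists, moved the same way, with Vwf at 934 and 937 units in M2. Pecam1 went the other way in M1, as given above, the remaining endothelial and platelet markers (Cdh5, Kdr, Tek, Itga2b, Gp1bb, Gp9 and Gp6) did not pass relative to M0, and the part of such cells in P2ry1 was not tested. With values under 64 units set to 64 the fall of P2ry1 in M1 was lost (-0.015, adjusted p = 0.87), as it was with the methods' t-test on log2 values (adjusted p = 0.0745). The rise in M2 was lost with both forms of that test (adjusted p = 0.0501 and 0.0769). The paper lists P2ry1 among the genes increased in M2 and decreased in M1. Its p-values for both changes are under its threshold and differ from the adjusted p-values given here. P2ry10b, a receptor with a P2Y symbol but no established nucleotide ligand, changed by -0.58 in M1 and 0.68 in M2. The channel P2rx5 changed by 0.28 and 0.74, and all of these changes were past the threshold. P2rx5 was dim, at 41.7, 41.5 and 41.2 units in M0, 49.7, 49.4 and 51.9 in M1 and 68.9 and 69.8 in M2.

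Of the 10 genes measured among other ectonucleotidases and their relatives, Enpp4, a phosphodiesterase-family enzyme, rose in M1 (0.79) and fell in M2 (-0.85). Enpp4 was dim, at 43.3, 35.4 and 41.2 units in M0 and 72.2, 82.8 and 54.2 in M1. In M2 it was at 24.0 and 20.2 units, below the median of both arrays. Entpd7, an intracellular relative of Entpd1, fell in M1 (-0.52). Of 8 genes for adenosine uptake and turnover, 4 fell in M1, and 2 rose and 3 fell in M2. Ada (adenosine deaminase) fell in both (-2.01 and -1.17), Adk (adenosine kinase) fell in M1 (-0.88), Pnp (purine nucleoside phosphorylase) fell in M2 (-0.88) and Ahcy (which releases adenosine from S-adenosylhomocysteine) rose in M2 (0.70). Of 6 genes for ATP release, Gja1 (connexin 43) rose in M1 and M2, unevenly, at 132, 33.0 and 165 units in M1 against 30.0, 28.5 and 29.6 in M0. Vdac1, a channel of the mitochondrial outer membrane, was lower in M1 than in M2 (-0.64).
Of 8 genes from P2X7 to IL-1 release, 5 rose in M1 while P2rx7 did not pass, and 2 fell in M2 (13.7% of all genes rose in M1 and 6.43% fell in M2). Il1b rose from 114, 96.6 and 104 units in M0 to 9836, 6392 and 10693 in M1 (log2 change 6.39). Il18 rose in M1 (0.84) and fell in M2 (-1.81), the inflammatory caspase Casp4 likewise (0.46 and -0.55), and the inflammasome sensor Nlrp3 rose in M1 (0.42). Of 14 G protein alpha subunits and adenylyl cyclases, through which P2Y and adenosine receptors signal, 1 rose and 5 fell in M1, and 2 rose and 1 fell in M2. Gnaq, which couples P2ry2 and P2ry6 to phospholipase C, fell in M1 (-0.93), and Gna11, another subunit with that role, rose (0.49, adjusted p = 0.00446). Gna12 fell in M1 (-1.07), Gna15 rose in M2 (1.12) and Adcy9 fell in both (-0.63 and -0.67).
Some of these calls were lost when 1 array was left out, for several genes whichever of most arrays it was. In M1 relative to M0, P2rx5 lost its call without any 1 of the 6 M0 and M1 arrays (adjusted p = 0.0703 to 0.13), Casp4 and Gja1 without any 1 of 5 of the arrays (0.0616 to 0.124 and 0.0552 to 0.113) and Nlrp3 without any 1 of 7 (0.0511 to 0.154). In M2 relative to M0, Casp4 and Gja1 lost theirs without any 1 of 6 arrays (0.052 to 0.386 and 0.0515 to 0.305), Ada and P2ry10b without either M2 array (0.0502 to 0.12 and 0.0674 to 0.0764) and Enpp4 without the second M2 array (0.0696).

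**Figure D4:**
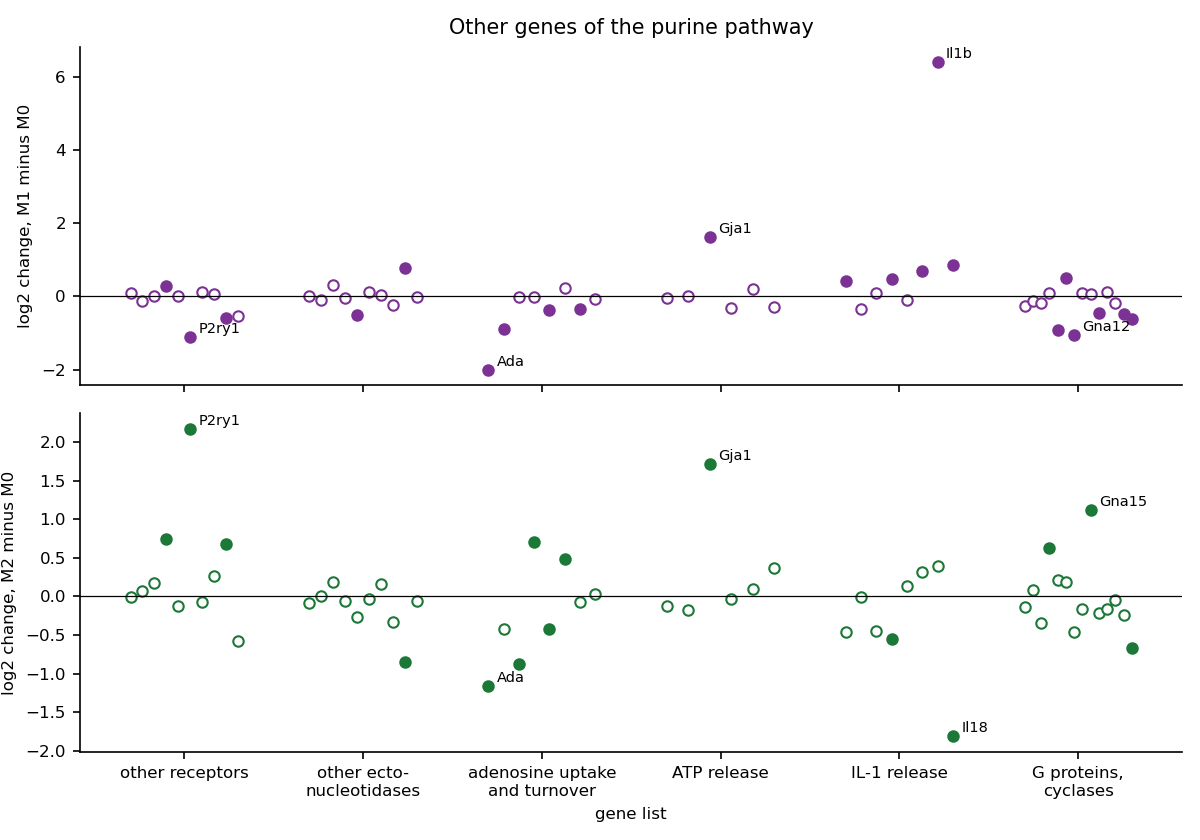
Log2 change in M1 (upper) and M2 (lower) relative to M0 of each measured gene in the 6 other lists, grouped along the horizontal axis. Filled points passed at an adjusted p under 0.05, and names mark those past 2-fold, with P2ry1 at -1.12 in M1 and 2.17 in M2.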

How the data were processed

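RNA of 8 cultures of bone marrow-derived macrophages (3 M0, 3 M1, 2 M2) was hybridized to Affymetrix Mouse 430 2.0 arrays. The authors ran RMA (the Expression File Creator tool, GenePattern) and deposited intensity values on a linear scale for 45101 probe sets (versions not given in the sources used here). The 64 control probe sets were left out and log2 was taken. Genes came from a platform annotation table that gives 34945 probe sets 1 symbol (18193 genes), 932 several and leaves 9160 unlisted. The gene value was that of the probe set with the highest mean.

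limma 3.58.1 in R 4.3.3 (lmFit, eBayes) was fitted to all 8 arrays with a mean per condition and no covariate (5 residual and 6.95 prior degrees of freedom). Benjamini-Hochberg adjustment was made over 45037 probe sets, and an adjusted p under 0.05 was called. The fit was tested on simulated data. Array titles number the cultures, but no source states that a number marks the same mouse, so numbers were not used as pairs. Deviations from the group means correlated at -0.172 to 0.0547 for same-numbered arrays and at -0.150 to 0.190 for differently numbered ones. With 2 or 3 arrays per group such deviations are tied to each other, so these correlations cannot show whether arrays were paired. RMA models all arrays together. The number of arrays limits the precision.

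The 10 genes, the other lists and the motifs were chosen with earlier results of these data known, and GAGGAA and GGGCGG after the promoters had been read. 1 further motif of the 8 searched is not reported here. Named beside the 10 genes were up to 4 genes of each list with the largest changes that passed, the 3 genes nearest to a member that passed at 2-fold, and the brightest gene of each marker list. Other markers and Gna11 were named after their values were seen. Alternatives were 12 settings and 8 fits without 1 array each. Figures used matplotlib 3.10.9.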

Additional observations from a re-analysis of the deposited data

How the results depend on the processing

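With 3, 3 and 2 arrays, standard errors were widest for P2rx7 (0.29 in M1 and 0.33 in M2 relative to M0) and then Entpd1 (0.20 and 0.23), and P2ry13 and Adora3 were dim. For the 8 genes in 3 comparisons, direction and call were the same in 267 of 288 results under settings other than leaving out an array, and in 178 of 192 when each array was left out in turn. In each comparison 6 or 7 of the 8 genes had no call in the main fit. A stricter p or a 2-fold limit could not change those results. Under the settings other than leaving out an array, 16 results lost a call and 5 gained a call. Adora3 in M2 relative to M0 turned to 0.024 without M2 replicate 1 (range -0.22 to 0.024 over the arrays left out). P2rx7 between M1 and M2 turned to 0.09 without M1 replicate 3 and 0.26 without M2 replicate 1 (range -0.64 to 0.26).

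The count of genes lower in M1 than in M0 was 0 in place of 1 with either form of the methods' t-test (log2 and linear values), with values under 64 units set to 64 and with a 2-fold limit (Entpd1 at -0.98 lay just inside it). Entpd1 itself had no value under 64 units at its brightest probe set. The count lower in M2 was 0 in place of 1 with either t-test, median centring, further quantile normalization, the limit of 64 units, the 2-fold limit and an adjusted p under 0.01. The replicate block gave 0 there too (P2ry13 at -0.60, adjusted p = 0.0953) and changed the call of no other of the 8 genes. Higher in M1 than in M2, 1 gene in place of 2 was left with either t-test, the limit of 64 units and the 2-fold limit. Lower in M1 than in M2, 1 gene in place of 0 was counted with trend and robust variances, quantile normalization and the filter at 64 units (P2ry6), and 2 with the mean over probe sets (P2ry6 and Entpd1). Without 1 array each, the counts ranged from 1 to 2 higher and 1 to 3 lower in M1 relative to M0, 0 to 1 and 0 to 1 in M2 relative to M0, and 2 to 2 and 0 to 1 in M1 relative to M2. The cause of these changes was not tested.

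Of the 42 other purine genes, 15 changed in M1 relative to M0, against 6 and 7 with the t-test on log2 and linear values, 5 with the limit of 64 units, 4 with the 2-fold limit and 9 with an adjusted p under 0.01. In M2 relative to M0 12 changed, against 1 and 1, 6, 4 and 6. Between M1 and M2 14 changed, against 4 and 2 with the t-tests and 6 with the 2-fold limit. Without 1 array each these counts ranged from 9 to 16, 7 to 13 and 11 to 14.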
